A study of Mus musculus with 11 samples.

Results

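Osteopontin and one of its receptors were followed through the cells of fibrotic mouse kidneys with 2 genes, *Spp1* and *Cd44*, which were selected by name from 28692 features and were both measured in all 11 libraries. Single-cell RNA-seq (scRNA-seq, 10x Chromium 3′ v3 chemistry) was carried out on whole-kidney suspensions of male C57Bl/6 mice. The 5 control libraries came from naive mice, the 3 UIR libraries from kidneys whose left renal pedicle had been clamped for 30 minutes (unilateral ischemia/reperfusion), and the 3 UUO libraries from kidneys whose left ureter had been irreversibly ligated (unilateral ureter obstruction). Injury was induced at 10 weeks of age, the injured kidneys were taken at day 28, and the controls were matched for age, strain and sex. The operated mice were given isoflurane during surgery and buprenorphine after it, which the naive controls were not described as receiving. All suspensions were made with a cold active protease from *Bacillus licheniformis*.

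Osteopontin is a secreted, heavily phosphorylated glycoprotein that binds integrins through an RGD motif and binds the cell surface glycoprotein CD44. It is made by the thick ascending limb and distal tubule of the normal kidney, where it is known as an inhibitor of crystal growth in urine, and by activated macrophages and injured epithelium. CD44 is also the main receptor for hyaluronan, is carried by most leukocytes, and is known to appear on regenerating tubules.

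Cell classes were rebuilt by clustering and named from marker genes, with *Spp1*, *Cd44* and the pathway genes described here left out of clustering and naming. Each class name means that the cells resembled that type by its markers. The tubular classes were proximal tubule (PT), loop of Henle (LOH), distal tubule (DT), collecting duct principal (CD-P) and intercalated (CD-I) cells and failed repair tubular epithelial cells (frTECs). The others were podocytes (Podo), endothelium (Endo), stroma, which combines the fibroblast classes Fibro 1, Fibro 2/3 and Fibro 3, macrophages (Macro), monocytes (Mono), neutrophils (Neutro), conventional dendritic cells (cDC1, cDC2), B cells and T/NK cells. Levels are in counts of UMIs (unique molecular identifiers, 1 per captured transcript) scaled as CPM to all UMIs of a class in a library, for classes with at least 20 cells in that library. In these data 3′ UMIs do not scale with transcript length.

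Control libraries held between 91920461 and 110914244 UMIs, UIR libraries between 82522753 and 117043590, and UUO libraries between 49503312 and 60918546, and 10260, 16942 and 13371 cells were kept. Among called barcodes those over 30% mitochondrial UMIs were left out, which was 56.9 to 79.0% of a control library, 23.8 to 37.4% of a UIR library and 3.15 to 8.0% of a UUO library. In all, 212 barcodes of 40360 were kept in more than 1 library. The control libraries were made in 3 batches (Ctrl, N1 and N2, AN1 and AN2) and the injured libraries carry no batch label, so batch and injury cannot be told apart. The study gives numbers of mice equal to the numbers of libraries in each group. The labels do not say that libraries of a group came from separate mice, and p-values measure the spread between these libraries.

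*Spp1* lies on the plus strand of chr5:104435118-104441050 (GRCm38, GENCODE vM21), spans 5933 bases and has 7 annotated transcripts with up to 8 exons. *Cd44* lies on the minus strand of chr2:102811141-102901665, spans 90525 bases and has 9 transcripts, 8 of them coding, with up to 19 exons. The 3′ assay counts the last exons and cannot separate the *Cd44* splice forms. The 250 bases before the RefSeq start of each gene (GRCm38.p6, 5′ to 3′ on the gene's strand) are shown because both genes were measured as mRNA that changed with injury and the promoters differ in composition. The *Spp1* window is chr5:104434861-104435110 and the *Cd44* window chr2:102901666-102901915. Capitals mark a TATA box (letters TATAAA), a RUNX motif (TGTGGT, which reads as ACCACA on this strand) and a CCAAT box (which reads as ATTGG on this strand).
Spp1 promoter: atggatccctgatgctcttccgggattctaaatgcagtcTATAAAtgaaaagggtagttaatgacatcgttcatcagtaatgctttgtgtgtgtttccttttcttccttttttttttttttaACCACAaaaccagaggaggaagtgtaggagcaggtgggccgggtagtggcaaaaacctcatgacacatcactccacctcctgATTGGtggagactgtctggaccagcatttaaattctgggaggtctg
Cd44 promoter: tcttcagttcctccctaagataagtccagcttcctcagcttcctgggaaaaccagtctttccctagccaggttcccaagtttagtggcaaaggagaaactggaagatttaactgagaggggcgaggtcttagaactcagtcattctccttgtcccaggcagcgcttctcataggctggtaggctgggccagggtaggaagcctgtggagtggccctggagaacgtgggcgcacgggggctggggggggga
In the *Spp1* window the TATA box lay 211 to 206, the RUNX motif 128 to 123 and the CCAAT box 46 to 42 bases before the start, and an E-box (letters CANNTG, not capitalised) lay 98 to 93 bases before it. The TATA box, the RUNX motif TGTGGT, the CCAAT box, the E-box, the AP-1 motif (letters TGANTCA) and the GC box (letters GGGCGG) were all searched on both strands, and none was found in the *Cd44* window. Over 32817 RefSeq promoters of the same length, the TATA box was in 12.4%, the RUNX motif in 14.0%, the CCAAT box in 33.8%, the E-box in 66.2%, the AP-1 motif in 6.75% and the GC box in 32.7%. GC content was 43.6% for *Spp1* and 56.4% for *Cd44*, against a median of 52.4%. These matches describe letters in the windows and are not binding sites.

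Over whole suspensions, both genes were higher in each model. *Spp1* over all kept cells was 353 to 589 CPM in the controls (463 ± 97.1, SD, n = 5), 5890 to 7672 CPM in UIR (6551 ± 976, n = 3) and 4408 to 6323 CPM in UUO (5319 ± 961, n = 3). The log2 fold change over control was 3.44 (SE 0.17, edgeR adjusted p = 1.47e-08) in UIR and 3.07 (SE 0.17, edgeR adjusted p = 4.72e-09) in UUO. *Cd44* rose from 4.0 ± 1.03 CPM to 41.7 ± 10.4 in UIR and 66.9 ± 9.07 in UUO, a log2 fold change of 2.99 (SE 0.20, edgeR adjusted p = 6.56e-08) and 3.61 (SE 0.20, edgeR adjusted p = 4.15e-09). No injured library overlapped a control library for either gene. In these fits 33.4% of 16266 genes were called higher in UIR and 38.7% in UUO, so a call alone does not set the genes apart.

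Over all barcodes, including those left out as low quality or empty, the direction was the same. *Spp1* was 397 ± 134 CPM in control, 3842 ± 433 in UIR and 4644 ± 590 in UUO (log2 fold change 2.27 and 2.12), and *Cd44* was 1.17 ± 0.168, 24.5 ± 5.80 and 56.2 ± 3.80 CPM (3.34 and 4.12). Here 36.2% and 41.8% of genes were called higher, and 67.5% and 78.1% in either direction. The fold changes, given after TMM scaling between libraries, are smaller than the ratios of the CPM means, here and over kept cells. For *Spp1* over all barcodes they also order the models the other way. Between the models, *Cd44* was higher in UUO than in UIR over all barcodes (log2 fold change 0.78, SE 0.19, edgeR adjusted p = 0.00702; 16.3% of genes called higher) and over kept cells (0.61, SE 0.20, edgeR adjusted p = 0.0338; 12.4% called higher). The second call was lost without UIR1 (edgeR adjusted p = 0.112), without UUO1 (edgeR adjusted p = 0.0840), without UUO2 (edgeR adjusted p = 0.135) and with a 15% mitochondrial limit (edgeR adjusted p = 0.178). *Spp1* was not called between the models. In a whole suspension more cells of a type and more RNA per cell cannot be told apart. Tubular cells made up 81.5% of kept cells in control, 38.8% in UIR and 16.5% in UUO, macrophages 3.63%, 21.5% and 30.7%, other immune cells 2.18%, 17.1% and 23.3%, and stromal cells 1.46%, 3.87% and 6.21%.

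*Spp1* transcripts sat in tubular cells in every group, although those cells had become a minority. Tubular classes held a mean of 98.5% of a control library's *Spp1* UMIs, 93.9% in UIR and 94.8% in UUO. The tubular segment changed. LOH cells held 14.4 ± 3.30% of *Spp1* UMIs in control, 59.3 ± 8.46% in UIR and 53.9 ± 13% in UUO, and frTECs held 14.3%, 17.4% and 27.2%. DT cells fell from 29.6% of the control UMIs to 6.30% and 1.38%, and PT cells from 26.9% to 2.41% and 1.40%. Macrophages held 0.157%, 0.418% and 2.81%, and stromal cells 0.0691%, 2.28% and 0.836%.

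For the compartment shares of *Spp1*, exact two-sided permutation tests over libraries gave adjusted p = 0.0446 in UUO for the lower tubular share and the higher macrophage, stromal and other immune shares. The corresponding adjusted p was 0.0893 in UIR for all of these by the same exact permutation test. With 5 against 3 libraries the smallest possible p is 0.0357 before adjustment. None of the 4 UUO calls was kept with a 15% mitochondrial limit, at the finer clustering resolution or with free RNA subtracted. The tubular difference changed sign with finer clustering (6.59 percentage points higher in UIR and 4.83 in UUO), and the other immune difference when each cell was named on its own markers (-4.22 and -5.75).

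*Cd44* transcripts had a different home. Macrophages and other immune cells held 28.3% and 62.6% of control *Cd44* UMIs, and tubular cells held 5.72%. The tubular share was 37.0% in UIR and 20.4% in UUO (exact permutation test, adjusted p = 0.0595 and 0.0893), while other immune cells held 39.0% and 55.3% (exact permutation test, adjusted p = 0.0595 and 0.179). frTECs held 3.71%, 23.9% and 12.1%, and LOH cells 1.72%, 9.85% and 6.32%. Among immune classes, T/NK cells held 31.2%, 19.996% and 16.4%, neutrophils 3.40%, 2.22% and 10.3%, and monocytes 13.1%, 3.11% and 11.8%.

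**Figure D1:**
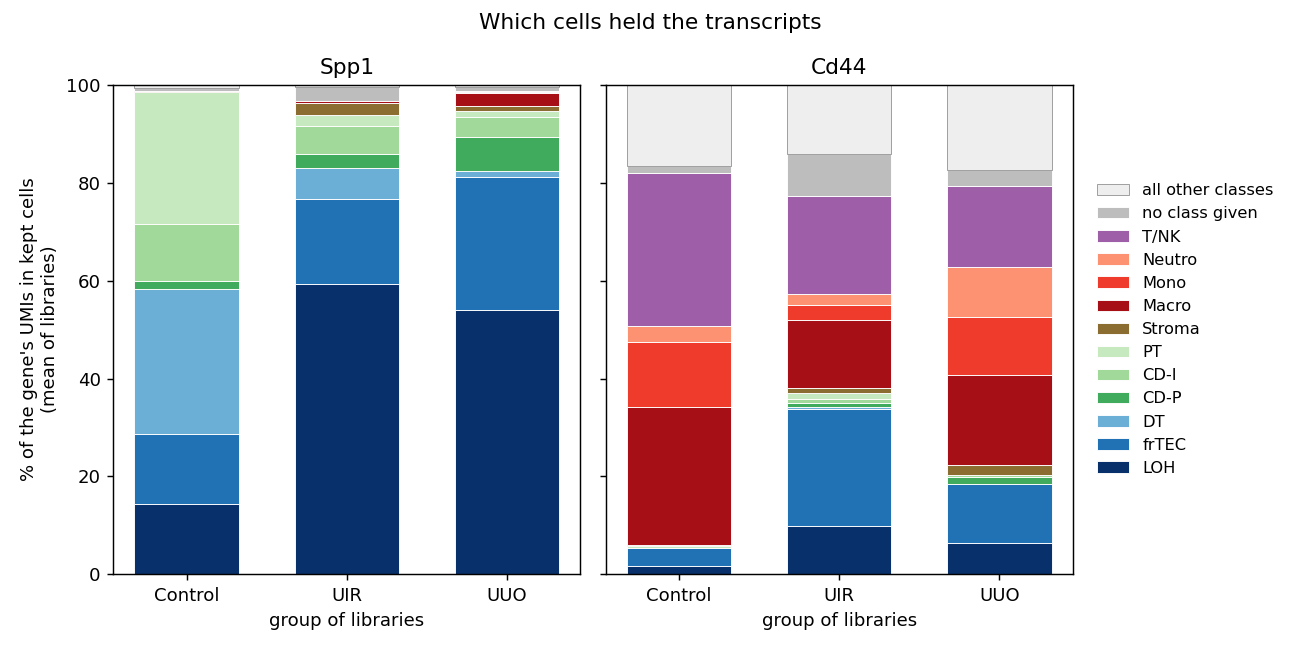
Share of each library's *Spp1* and *Cd44* UMIs held by each cell class (y axis, percent, mean over the libraries of a group) in control, UIR and UUO (x axis), where "no class given" marks cells left without a name. The LOH part of the *Spp1* bar grows from 14.4% in control to 59.3% in UIR and 53.9% in UUO, and the frTEC part of the *Cd44* bar from 3.71% to 23.9% and 12.1%.

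*Spp1* was called higher in 11 of 11 classes tested in UIR and in 9 of 11 in UUO, where podocytes and T/NK cells missed the threshold. The unadjusted p was under 0.05 in all 11 classes in both models. The log2 fold changes ran from 1.17 to 7.38 in UIR and from 0.93 to 4.82 in UUO. The share of all genes called higher ran from 0.268% (T/NK) to 18.2% (LOH) in UIR and from 0.515% (T/NK) to 20.9% (LOH) in UUO. It is given beside each class. The count includes endothelium, podocytes and T/NK cells, whose injured levels lay near or below the free RNA estimate, as given further on.

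**Figure D2:**
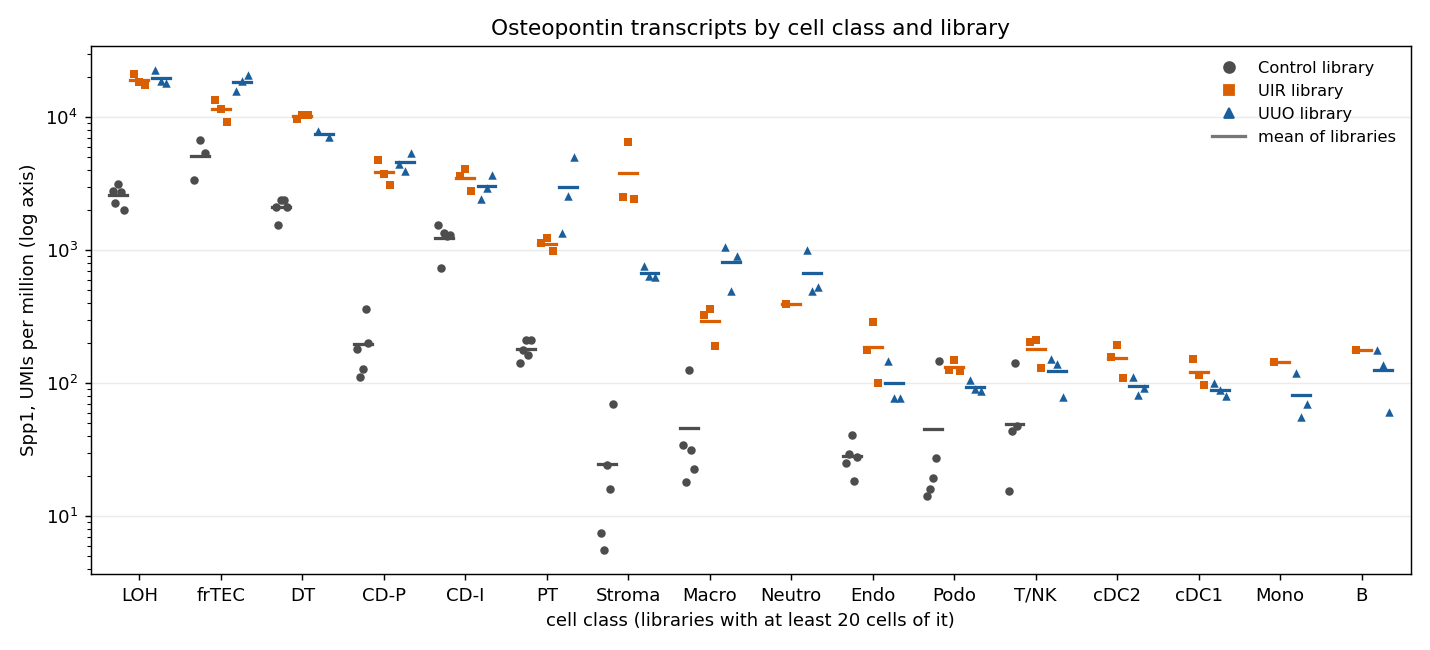
*Spp1* level per library (points, CPM on a log axis) and group mean (line) in each cell class for control, UIR and UUO. Every injured tubular, stromal, macrophage and endothelial point lies above the control points of its class, from 17345 to 22581 CPM against 1998 to 3119 in LOH. The control T/NK library N2 had 0 *Spp1* UMIs and is not drawn, but the mean line includes it.

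The loop of Henle, whose thick ascending limb reabsorbs sodium chloride through the cotransporter encoded by *Slc12a1*, carried the highest *Spp1* level in UIR and, together with frTECs, in UUO. Control libraries Ctrl, N1, N2, AN1 and AN2 had 3119, 2720, 1998, 2778 and 2263 CPM in LOH. UIR, UIR1 and UIR2 had 21178, 18190 and 17345 CPM, and UUO, UUO1 and UUO2 had 22581, 18517 and 17866 CPM. The lowest injured library lay far above the highest control, and the models overlapped. In LOH the log2 fold change was 2.65 (SE 0.16, edgeR adjusted p = 1.01e-11) in UIR and 2.70 (SE 0.16, edgeR adjusted p = 3.87e-12) in UUO, in fits that called 18.2% and 20.9% of LOH genes higher. *Spp1* was the 22nd most abundant gene of control LOH cells and moved to rank 3 in UIR and rank 2 in UUO, where it made up 1.89% and 1.97% of all LOH UMIs.

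Different clusters held most LOH cells in the groups. Of the control cells, 262 of 272 lay in a cluster with high *Umod* (uromodulin), which kept 113 UIR and 12 UUO cells. Within that cluster *Spp1* was 2581 ± 439 CPM in control and 10600 ± 1547 in UIR, with library values of 2008 to 3113 and 8900 to 11924 CPM (log2 fold change 1.87, SE 0.17, edgeR adjusted p = 1.70e-09, against 10.8% of genes called in either direction). The cluster was tested on its own after its values had been seen. The injured LOH cells lay mostly in 3 other clusters. One led by *Slc12a1*, *Umod* and *Wfdc2* (624 UIR and 213 UUO cells, 1 control cell) had 18658 ± 2012 and 20060 ± 2573 CPM. Another, led by *Lcn2*, *Mt2* and *Krt19* (342 UIR and 468 UUO cells, no control cell), had 22249 ± 2121 and 19631 ± 3480 CPM, and one led by *Slc12a1* and *Slit2* had 15463 ± 3036 and 14210 ± 3781 CPM. *Lcn2* encodes a lipocalin released by injured distal nephron, and *Krt19* a keratin of simple and ductal epithelium. The difference of UIR from control was thus present within the *Umod*-high cluster, where UUO had too few cells for a value.

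The distal tubule and collecting duct showed the same direction from different starting levels. In DT, where *Slc12a3* drives thiazide-sensitive salt uptake, *Spp1* was 1542 to 2376 CPM in the 5 controls and 9615, 10346 and 10394 CPM in UIR. UUO1 and UUO2 had 7802 and 7133 CPM, and the library UUO, with 17 DT cells, was left out of the fit. Fitted log2 fold changes were 1.97 (SE 0.15, edgeR adjusted p = 9.45e-10) and 1.48 (SE 0.17, edgeR adjusted p = 1.34e-06), with 12.1% and 7.65% of genes called higher. The control DT held a *Calb1*, *S100g* cluster (3258 ± 184 CPM) and a *Slc12a3*, *Pvalb* cluster (587 ± 129 CPM). In UIR the first had 5923 CPM over 2 libraries, and most DT cells lay in a cluster led by *Klk1*, *Tmem52b* and *Wfdc2* with 12378 ± 894 CPM, which held 2 control cells.

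Principal cells, which take up water through aquaporin 2, went from low to high *Spp1* levels. Their controls had 129, 359, 199, 181 and 111 CPM, the UIR libraries 4747, 3754 and 3079 CPM, and the UUO libraries 4406, 3918 and 5405 CPM. *Spp1* rose in CD-P by a log2 fold change of 4.25 (SE 0.26, edgeR adjusted p = 8.47e-10) in UIR and 4.47 (SE 0.26, edgeR adjusted p = 1.60e-10) in UUO, against 11.9% and 17.0% of genes called higher, and the rank among genes went from 682 to 13 and 11. Of the control CD-P cells, 280 of 286 lay in a cluster led by *Aqp2* and *Fxyd4*. That cluster had 118 to 359 CPM in control and 535 to 1174 CPM in UIR. A cluster with *Clu* and *Lcn2* among its leading genes (235 UIR and 347 UUO cells, no control cell) had 5688 ± 1492 CPM in UIR and 4991 ± 568 in UUO. Its marker score was 0.344 for CD-P and 0.271 for DT, so its place in CD-P is uncertain, and the fold changes of the class rest largely on it. Intercalated cells, which secrete acid or base, had 730 to 1548 CPM in control, 3585, 4049 and 2792 CPM in UIR and 2426, 2904 and 3696 CPM in UUO. Their log2 fold change was 1.17 (SE 0.19, edgeR adjusted p = 0.000119) and 0.93 (SE 0.19, edgeR adjusted p = 0.000869), with 10.0% and 13.2% of genes called higher, and the UUO call was lost when 15% of barcodes were removed as doublets (0.66, edgeR adjusted p = 0.0961). Of the CD-I cells, 163 of 251 in control and 41 of 250 in UUO lay in a cluster led by *Atp6v1g3* and *Atp6v1c2*. There *Spp1* was 598 to 1709 CPM in control, 1415 to 4524 CPM in UIR and 1254 CPM in UUO2, so both injured groups overlapped with control.

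The class named frTEC, after an epithelial state with both tubular and injury genes, had the highest *Spp1* level of the control kidney. Most control frTECs (79.6%) lay in a cluster led by *Bst1*, *Cryab*, *Apela* and *Plau*, so the control level is mainly that of this cluster. Its 10 leading genes held 1 of the frTEC markers (*Cryab*) and also *Aqp1*, a water channel of the proximal tubule and thin descending limb. The study listed *Spp1* among the injury genes of these cells, but it did not take part in naming them here. Ctrl, N2 and AN2 had 6671, 5340 and 3352 CPM, and N1 and AN1, with 17 and 8 frTECs and 6032 and 6126 CPM, were left out of the fit. UIR libraries had 13518, 11497 and 9224 CPM and UUO libraries 15572, 18555 and 20673 CPM. In frTECs *Spp1* rose by a log2 fold change of 1.21 (SE 0.25, edgeR adjusted p = 0.00364) and 1.84 (SE 0.25, edgeR adjusted p = 0.000148), with 7.73% and 8.40% of genes called higher. The libraries of the 2 models did not overlap, but UUO against UIR was not called (0.63, edgeR adjusted p = 0.670).

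The frTEC clusters were unevenly filled. The *Bst1*-led cluster held 25.3% and 26.1% of UIR and UUO frTECs. Within it *Spp1* was 6960 and 3352 CPM in the 2 controls with enough cells, 14788, 16901 and 9429 CPM in UIR and 18145 and 17559 CPM in 2 UUO libraries (log2 fold change 1.39, edgeR adjusted p = 0.0139, and 1.75, edgeR adjusted p = 0.00454, against 4.53% and 5.01% of genes called). The tests within this cluster were also added after its values had been seen. A cluster led by *Ubd*, *Ptgds*, *Vcam1* and *C3* (46.5% of UIR and 38.2% of UUO frTECs) had 11826 ± 2291 and 19220 ± 3801 CPM. A cluster led by *Tnc*, *Ncam1* and *Cp* had 8683 ± 818 and 10373 ± 1190 CPM. The *Ubd*-led and *Tnc*-led clusters held 3 and 17 control cells, so the fold changes of the class compare different mixes of clusters.

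In the proximal tubule, which takes up most of the filtered solutes and gave 6863 control, 2620 UIR and 203 UUO cells, *Spp1* was low in control and rose. Control PT had 210, 162, 212, 142 and 178 CPM, UIR 1138, 1232 and 976 CPM, and UUO 1340, 2564 and 4992 CPM. The groups were spread differently over the PT clusters. One led by *Gpx3* held 55 control, 711 UIR and 58 UUO cells, and one led by *Ugt2b37*, *Cpn1* and *Slc13a1* held 2, 103 and 15, with 2984 and 2024 CPM in UIR1 and UIR2. Over the class this gave a log2 fold change of 2.58 (SE 0.26, edgeR adjusted p = 1.37e-06) in UIR and 3.94 (SE 0.27, edgeR adjusted p = 3.12e-08) in UUO, against 11.7% and 8.48% of genes called higher. The 3 UUO libraries differed most, and without UUO2 the UUO value was 3.32. PT levels were 4.73 to 9.55 times what free RNA alone would give in control, 4.81 to 6.75 times in UIR and 11.95 to 50.5 times in UUO. In these estimates the free RNA of a library, RNA from broken cells that enters every droplet, was taken from barcodes without cells, where *Spp1* was 880 CPM in Ctrl and 184 to 283 CPM in the other controls, 1524 to 2982 CPM in UIR and 2323 to 3338 CPM in UUO.

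**Figure D3:**
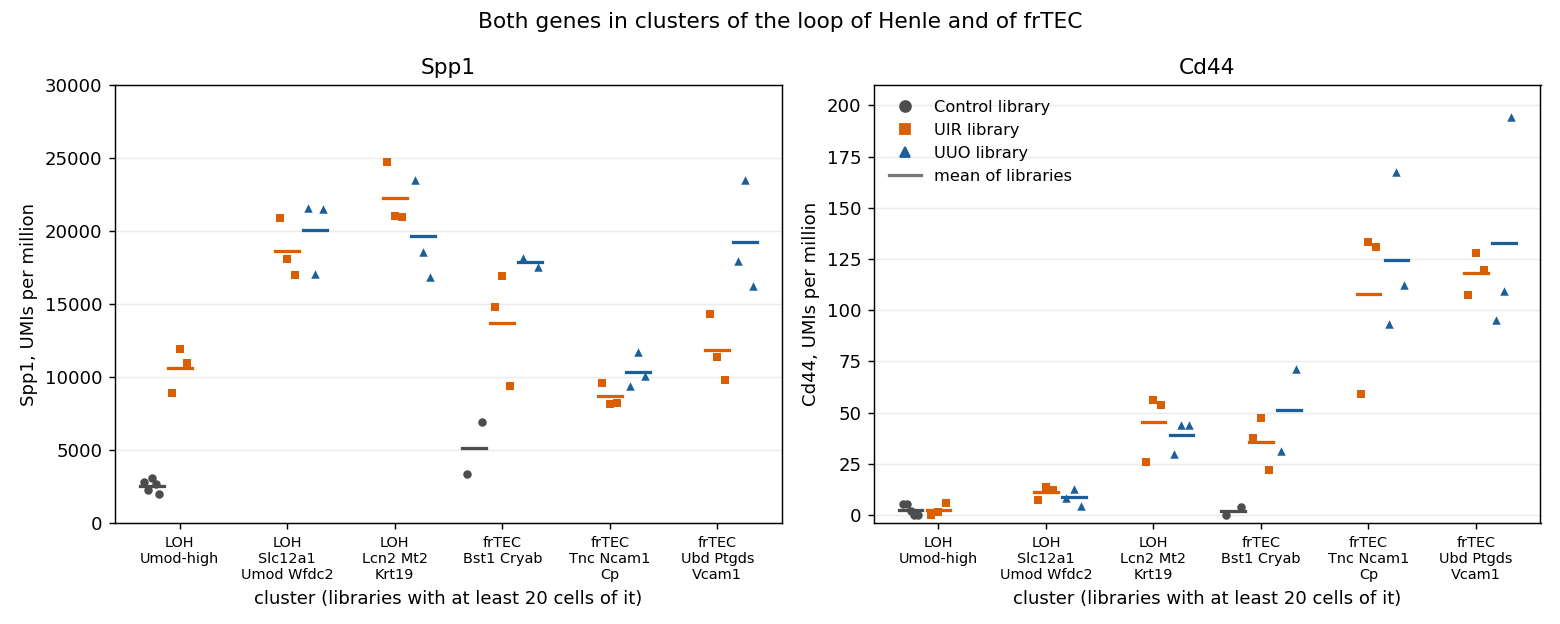
*Spp1* and *Cd44* levels (CPM) in 3 clusters of LOH and 3 of frTEC cells, with points for libraries and lines for group means. The lowest injured group mean of *Spp1* is 8683 CPM, in the *Tnc*-led frTEC cluster of UIR, and *Cd44* has group means of 108 to 133 CPM in 2 frTEC clusters of the injured kidneys and is 2.45 CPM in the *Umod*-high LOH cluster of UIR.

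In stroma *Spp1* was near the level of free RNA in the controls and was high in the injured kidneys, above all in UIR. Control stroma had 24.2, 16.1, 69.3, 7.48 and 5.55 CPM, which is 0.229 to 1.81 times the free RNA estimate. UIR, UIR1 and UIR2 had 2500, 6486 and 2427 CPM (18.3 to 41.4 times the estimate), and UUO, UUO1 and UUO2 had 760, 634 and 630 CPM (5.11 to 8.81 times). All 3 groups were separate. The log2 fold change over control was 7.38 (SE 0.46, edgeR adjusted p = 2.14e-08) in UIR and 4.82 (SE 0.46, edgeR adjusted p = 1.63e-06) in UUO, against 8.90% and 11.1% of genes called higher. UUO lay below UIR by a log2 fold change of -2.56 (SE 0.40, edgeR adjusted p = 0.00134, with 0.589% of genes called lower), and by -1.89 without UIR1. Beside the control difference stands the make-up of the class. Of 148 control stromal cells, 104 lay in a Fibro 3 cluster led by *Ptn*, *Sfrp2* and *Adamts5* with the pericyte gene *Pdgfrb*, and most of the injured stromal cells were Fibro 1.

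Fibro 1, marked by *Col1a1*, *Dcn* and other matrix genes, held the stromal *Spp1*. Its level was 4661, 8822 and 4910 CPM in the 350 Fibro 1 cells of UIR and 1067, 860 and 964 CPM in the 507 of UUO. The log2 fold change of UUO against UIR within Fibro 1 was -2.72 (SE 0.25, edgeR adjusted p = 1.67e-05), where 3.28% of genes were called in either direction. Fibro 1 was tested on its own after its values had been seen, so this p-value is no independent support. The models were spread differently over the Fibro 1 clusters. Those led by *Cxcl14* and by *Mgp* and *Col3a1* held 114 and 165 UIR and 74 and 94 UUO cells, and those led by *Dcn* and by *Col12a1* held 2 and 0 UIR and 104 and 87 UUO cells. Fibro 3 had 22.9 ± 16.8 CPM in 3 controls, 136 ± 27.2 in UIR and 108 ± 68.9 in UUO, differences that were not called (edgeR adjusted p = 0.176 and 0.181). Fibro 2/3, with contractile genes, had 108 ± 53.8 CPM in UIR and 84.7 CPM over 2 UUO libraries. The stromal *Spp1* of the injured kidneys thus lay mostly in the matrix-rich class.

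In macrophages the order of the models was opposite. Control libraries had 125, 31.3, 22.8, 34.1 and 18.0 CPM of *Spp1*, with Ctrl apart from the others. UIR libraries had 325, 361 and 190 CPM and UUO libraries 1052, 492 and 909 CPM. Macrophage *Spp1* rose by a log2 fold change of 2.61 (SE 0.37, edgeR adjusted p = 0.000237) in UIR and 4.02 (SE 0.36, edgeR adjusted p = 3.19e-07) in UUO, against 3.04% and 5.17% of genes called higher, and was 3.46 in UIR without Ctrl. The pooled macrophages of a library were at 1.31 to 1.65 times the free RNA estimate in UIR, 0.511 to 2.15 times in control and 4.10 to 10.6 times in UUO. With free RNA subtracted control libraries had 0 to 70.2 CPM, UIR libraries 49.6 to 166 CPM and UUO libraries 392 to 914 CPM. The ranges of control and UIR thus overlapped. UUO was above UIR by 1.41 (SE 0.31, edgeR adjusted p = 0.0126, with 0.467% of genes called higher). That call was lost with DESeq2 (1.42, adjusted p = 0.313), without UIR2 (1.18, edgeR adjusted p = 0.105), without the library UUO (1.17, edgeR adjusted p = 0.0870) and without UUO2 (1.37, edgeR adjusted p = 0.0534). Different clusters, led by *C1qb* and *Lilra5*, by *Apoe* and *Ccl8* and by *Apoe* and *Pf4*, held the largest part of the macrophages of control, UIR and UUO. A further myeloid cluster, left without a class name, had 61 cells in UIR1 with 5356 CPM of *Spp1* (5075 UMIs). It entered neither the macrophage levels nor the comparison of the models.

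A single macrophage cluster, singled out after its values were seen, held most of the macrophage *Spp1* of UUO. It was led by *Trem2*, *Ms4a7*, *Apoe* and *C1qc*, the first a lipid receptor of tissue-remodelling macrophages, and comprised 234 UIR and 330 UUO cells and none of 366 control macrophages. *Spp1* in it was 403, 663 and 289 CPM in UIR and 4309, 1951 and 2746 CPM in UUO, and since the cluster was chosen by these values no test is given. It made up 6.05 ± 0.92% of UIR and 8.47 ± 3.58% of UUO macrophages, and held 24.2 ± 7.27% and 80.9 ± 8.09% of their *Spp1* UMIs. All other macrophages had 260 ± 75.2 CPM in UIR and 185 ± 50.4 CPM in UUO, against 18.0 to 125 CPM in all control macrophages. For macrophages as a whole the free RNA estimate was 145 to 248 CPM in UIR, 86.1 to 190 in UUO and 27.5 to 58.1 in control. Whether the other macrophages rose beyond it was not tested. A separate sub-clustering of the macrophages gave 43 UIR and 67 UUO cells the name of preset *Trem2* and *Gpnmb* markers, in libraries with at least 20 of them. Those shallow cells had 576 and 1247 CPM of *Spp1* in UIR and 542 to 661 CPM in UUO, without the higher UUO level of the cluster above, and the overlap of both sets was not counted. *Cd44* in the cluster was 122 ± 37.2 CPM in UIR and 150 ± 26.6 CPM in UUO.

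**Figure D4:**
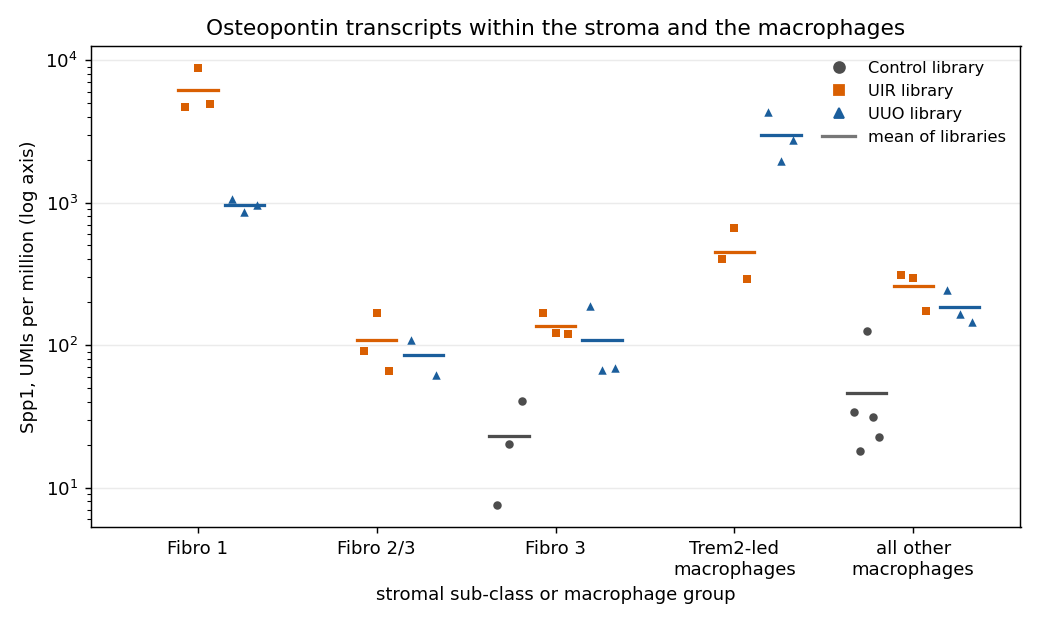
*Spp1* level (CPM, log axis) per library in Fibro 1, Fibro 2/3, Fibro 3, the *Trem2*-led macrophage cluster and all other macrophages (all macrophages for the controls), with lines for group means. Fibro 1 is at 4661 to 8822 CPM in UIR and 860 to 1067 in UUO, whereas the *Trem2*-led cluster is at 289 to 663 CPM in UIR and 1951 to 4309 in UUO.

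The remaining classes had lower *Spp1* levels, which are set beside the free RNA estimate. Endothelium had 18.4 to 40.8 CPM in control, 176, 286 and 101 CPM in UIR and 146, 77.7 and 76.8 CPM in UUO (log2 fold change 2.65, edgeR adjusted p = 4.10e-05, and 1.69, edgeR adjusted p = 0.00113, with 1.40% and 6.20% of genes called higher). The ratio to the free RNA estimate was 0.761 to 1.33 in control, 0.908 to 1.51 in UIR and 0.843 to 1.16 in UUO, and both calls were lost once free RNA was subtracted (edgeR adjusted p = 0.293 and 0.679). Podocytes had 44.8 ± 57.6 CPM in control, 133 ± 15.1 in UIR (log2 fold change 1.98, edgeR adjusted p = 0.00577, with 0.795% of genes called higher) and 93.9 ± 9.69 in UUO (1.44, edgeR adjusted p = 0.101, 1.49% called higher). They were at 0.541 to 8.11 times the estimate in control, 0.669 to 0.922 times in UIR and 0.486 to 0.867 times in UUO. The UIR call in podocytes was lost with DESeq2 (adjusted p = 0.724), without Ctrl (edgeR adjusted p = 0.0538) and without AN2 (edgeR adjusted p = 0.0502), and UUO was called without N2 (2.29, edgeR adjusted p = 7.76e-06). T/NK cells had 0 to 142 CPM in control, 182 ± 45.5 in UIR (1.83, edgeR adjusted p = 0.0165, 0.268% called higher) and 124 ± 39.2 in UUO (1.24, edgeR adjusted p = 0.132, 0.515% called higher), at 0 to 2.56 times, 0.916 to 0.984 times and 0.485 to 1.40 times the estimate. The UIR call in T/NK cells was lost with DESeq2 (adjusted p = 0.234), with cells named on their own markers and without N1, N2, AN1, AN2 or UIR1 in turn (edgeR adjusted p = 0.0735 to 0.109), and UUO was called without Ctrl (2.06, edgeR adjusted p = 0.0134). With free RNA subtracted the T/NK direction turned in both models (-8.22 and -0.90). Neutrophils stood apart from the other small immune classes, with 1000, 491 and 532 CPM in UUO, 3.29 to 3.98 times the estimate, and 396 CPM in the 27 cells of UIR1, 0.95 times it. Dendritic cells, monocytes and B cells had means of 81.3 to 178 CPM.

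In the order of levels, the class named frTEC, in control mainly the *Bst1*-led cluster, stood first there. LOH, DT and CD-I cells followed, and neighbours among these 3 had overlapping library ranges. In UIR LOH stood above frTECs and DT, which overlapped, and CD-P, stroma and CD-I cells overlapped below them. In UUO LOH and frTECs overlapped at the top and were followed by DT, CD-P, then CD-I and PT cells, which overlapped, and then macrophages, stroma and neutrophils, which overlapped. Between the models, 2 of 13 classes were called for *Spp1*, stroma lower and macrophages higher in UUO, where 1.28% of all gene by class tests were called. In 9 of the 13 the unadjusted p was under 0.05.

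Shares of cells with a *Spp1* UMI moved with the levels. Each cell was thinned to 1000 UMIs, because LOH cells of the injured kidneys were deeper than those of the controls. In LOH 70.0 ± 5.97% of control cells had a UMI against 97.1 ± 0.304% in UIR and 97.6 ± 1.29% in UUO (84.9%, 98.0% and 96.2% unthinned). In CD-P the shares were 15.01 ± 5.60%, 64.6 ± 9.63% and 73.2 ± 4.59% (43.5%, 92.0% and 94.4% unthinned), and in PT 14.2 ± 2.35%, 38.5 ± 5.94% and 50.02 ± 9.46% (32.6%, 63.7% and 67.0% unthinned). These differences gave adjusted p = 0.0491 in UIR and 0.0561 in UUO by exact permutation tests, at the smallest p that 5 against 3 libraries allow. In UIR 8 classes were called, and 0 with a 15% mitochondrial limit or with 15% of barcodes removed as doublets. In stroma the shares were 1.89 ± 1.77%, 34.2 ± 11.4% and 21.3 ± 5.59% (10.8%, 66.9% and 53.0% unthinned). Endothelium, which stands near free RNA, had 3.63%, 17.4% and 11.6%, so the injured stromal share exceeded it in both models and the control share did not. Median UMIs of the cells used ranged over libraries from 3708 to 5786 in endothelium and from 4541 to 9030 in stroma, and 3, 48 and 143 stromal cells of control, UIR and UUO were too shallow and left out.

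*Cd44* was highest in leukocytes. In UUO neutrophils had 773, 920 and 734 CPM and monocytes 402, 532 and 475 CPM, and these classes did not overlap. T/NK cells had 115 to 182 CPM in control, 131 to 142 in UIR and 99.9 to 157 in UUO, and cDC2 cells 134 ± 19.97 and 140 ± 14 CPM in UIR and UUO. cDC1 cells had 69.3 ± 10.6 and 89.4 ± 15.4 CPM. Macrophages had 62.5 ± 14.8 CPM in control, 61.9 ± 0.637 in UIR and 70.5 ± 10.2 in UUO. Neither macrophages (log2 fold change 0.02, edgeR adjusted p = 0.980, and 0.13, edgeR adjusted p = 0.744) nor T/NK cells (-0.00, edgeR adjusted p = 0.9997, and -0.11, edgeR adjusted p = 0.883) differed detectably from control. Among macrophages, those named from preset *Cx3cr1* markers, in clusters led by other genes, had 70.9 ± 17.8, 67.0 ± 11.5 and 51.7 ± 6.75 CPM, and those named from *Mrc1* and *Folr2* markers 31.1 ± 8.14 and 32.4 ± 4.83 CPM in UIR and UUO.

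*Cd44* was called higher in 5 of 7 classes tested in each model, all 5 of them tubular or stromal, and the 2 leukocyte classes were not called. The fitted control pools held 0 *Cd44* UMIs in CD-P, 1 each in PT, frTECs and stroma, and 6 in LOH. These classes thus passed the filter on low counts through the injured libraries, and the count of calls alone does not set them apart from leukocytes. The share of all genes called higher was 7.73% (UIR) and 8.40% (UUO) in frTECs, 18.2% and 20.9% in LOH, 11.9% and 17.0% in CD-P, 11.7% and 8.48% in PT and 8.90% and 11.1% in stroma. Between UUO and UIR none of 9 classes was called by edgeR, 2 had an unadjusted p under 0.05 (LOH, log2 fold change 0.47, and stroma, 0.85), and no alternative run, DESeq2 among them, called any.

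**Figure D5:**
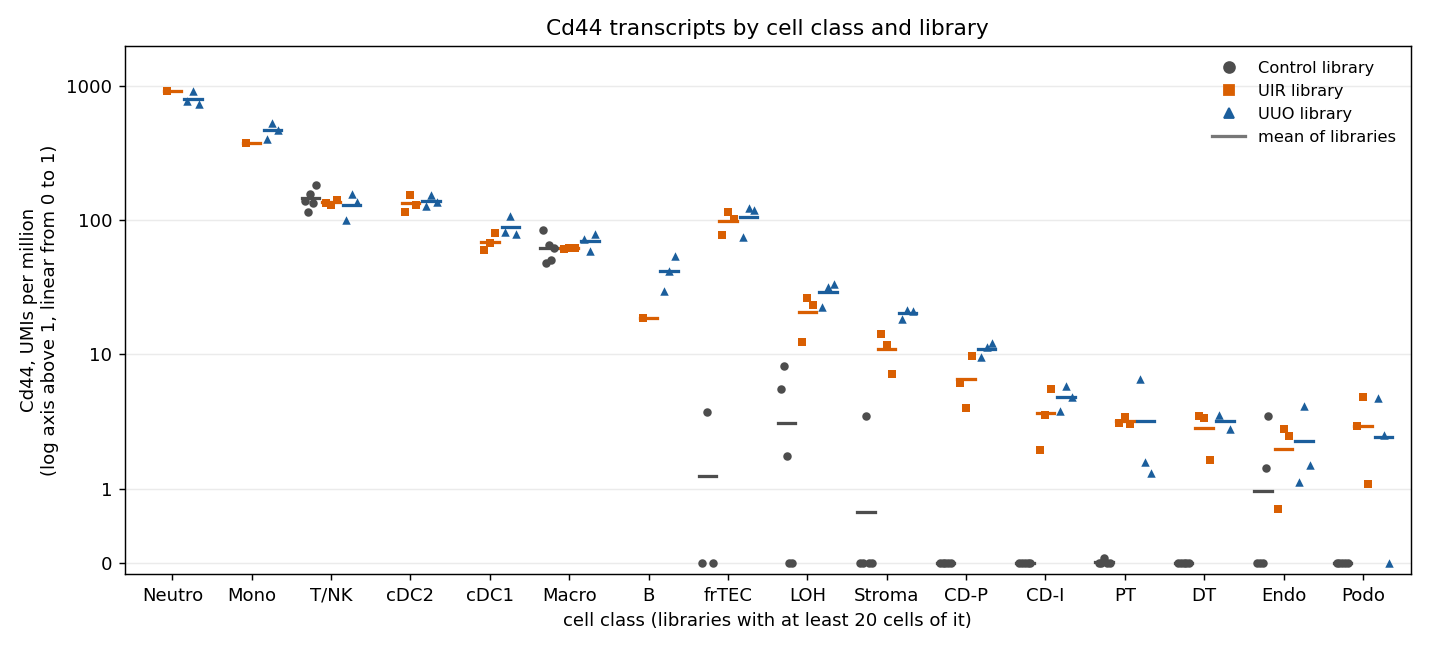
*Cd44* level per library (points, CPM) and group mean (line) in each cell class for control, UIR and UUO. frTEC points move from 0 to 3.74 CPM in control to between 75.2 and 124 CPM in the injured kidneys, while control and injured macrophages overlap between 48.0 and 85.2 CPM.

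In the tubule *Cd44* was concentrated in frTECs. The controls with enough frTECs had 3.74, 0 and 0 CPM, the UIR libraries 77.4, 116 and 102 CPM and the UUO libraries 75.2, 124 and 119 CPM, which overlapped the range of dendritic cells. The fitted log2 fold change was 6.03 (SE 0.71, edgeR adjusted p = 5.22e-05) in UIR and 6.09 (SE 0.71, edgeR adjusted p = 4.55e-05) in UUO, but it rests on 1 control UMI. The ratio of summed levels was 67.5 (exact 95% interval 12.1 to 2666) and 70.6 (12.6 to 2792). The 2 control libraries left out for few frTECs held 9 of the 10 control frTEC *Cd44* UMIs, in 2 of their 25 cells, at 38.1 CPM in N1 and 31.02 CPM in AN1. With every control frTEC the ratio was 9.29 (5.03 to 19.4) in UIR and 9.72 (5.26 to 20.3) in UUO. With pools of at least 5 cells, an alternative added after this was seen, the log2 fold change was 3.23 (edgeR adjusted p = 7.73e-05) and 3.28 (edgeR adjusted p = 5.8e-05). These intervals cover counting error only.

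Within frTECs *Cd44* followed the clusters. The *Bst1*-led cluster, where most control frTECs lay, had 4.05 and 0 CPM in 2 controls, 37.8, 47.2 and 22.2 CPM in UIR and 31.1 and 71.4 CPM in 2 UUO libraries (log2 fold change 3.87, edgeR adjusted p = 0.0416, and 4.32, edgeR adjusted p = 0.0196). Both calls were lost with DESeq2 (adjusted p = 0.109 and 0.0501), and the UIR call also without the library UIR (edgeR adjusted p = 0.0627) or UIR1 (edgeR adjusted p = 0.0631). Tests within this cluster were added after its values had been seen. The *Tnc*-led cluster had 108 ± 42.2 and 124 ± 38.4 CPM, and the *Ubd*-led cluster 118 ± 10.3 and 133 ± 53.5 CPM, in UIR and UUO.

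LOH cells had 1.74, 0, 0, 5.49 and 8.23 CPM of *Cd44* in control, 12.4, 26.3 and 23.4 CPM in UIR and 22.7, 31.7 and 33.3 CPM in UUO. *Cd44* rose in LOH by a log2 fold change of 2.47 (SE 0.57, edgeR adjusted p = 0.00163) and 2.94 (SE 0.55, edgeR adjusted p = 0.000143), and both calls were lost with a 15% mitochondrial limit (edgeR adjusted p = 0.139 and 0.0691). The *Umod*-high cluster stayed at 2.56 ± 2.80 CPM in control and 2.45 ± 3.004 CPM in UIR, whereas the *Lcn2*, *Krt19* cluster had 45.2 ± 16.7 CPM in UIR and 39.2 ± 8.14 CPM in UUO. The *Slc12a1*, *Umod*, *Wfdc2* cluster had 11.1 ± 3.12 and 8.67 ± 4.20 CPM. *Spp1* was thus high in each of these injured clusters, and *Cd44* mainly in the *Lcn2*, *Krt19* one.

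The other tubular classes had few *Cd44* transcripts. Control CD-P cells had 0 UMIs in 286 cells. With 6.12, 4.01 and 9.71 CPM in UIR and 9.53, 11.4 and 12.1 CPM in UUO, levels were at least 6.21-fold and 9.72-fold higher than the floor of 3 counts over the control group (edgeR adjusted p = 0.00104 and 8.84e-05, the first lost with a 15% mitochondrial limit, edgeR adjusted p = 0.0849). The part of leukocyte RNA in these CD-P values was not tested. By cluster, the *Aqp2*, *Fxyd4* cells had no *Cd44* UMI in 280 control and 191 UIR cells, and the cells of the cluster with *Clu* and *Lcn2* had 10.3 ± 3.37 and 12.4 ± 1.61 CPM. CD-I cells, also at 0 in control, were at least 3.89-fold and 5.44-fold higher, and DT cells at least 4.98-fold higher in UIR, and neither class passed the filter on low counts. PT cells had 1 *Cd44* UMI in 6863 control cells, 59 in 2620 UIR cells and 6 in 203 UUO cells, with ratios of 158 (exact 95% interval 27.3 to 6356) and 148 (17.9 to 6796) and edgeR adjusted p = 7.17e-07 and 0.000862. The PT level, 3.18 ± 0.192 and 3.17 ± 2.99 CPM, was 1.73 to 2.42 times and 1.18 to 3.71 times what free RNA would give. Leukocyte genes rose in the same pools, with *Cd74* at 25.8 ± 8.93, 724 ± 399 and 1324 ± 511 CPM, and their part was not tested.

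In stroma *Cd44* was 3.46 CPM in Ctrl and 0 in the other 4 controls, 14.2, 11.8 and 7.12 CPM in UIR and 18.3, 21.5 and 21.1 CPM in UUO. The log2 fold change was 3.35 (SE 0.86, edgeR adjusted p = 0.0120) and 4.20 (SE 0.75, edgeR adjusted p = 0.000656), on 1 control UMI, with a ratio of 10.3 (exact 95% interval 1.78 to 416) and 19.4 (3.42 to 772). Both calls were lost with a 15% mitochondrial limit (edgeR adjusted p = 0.313 and 0.113), and the UIR call also with 15% of barcodes removed as doublets (edgeR adjusted p = 0.0710). The part of leukocyte RNA in these stromal values was not tested. Fibro 1 had 17.8 ± 6.93 and 24.8 ± 2.48 CPM and was not called between the models (log2 fold change 0.47, edgeR adjusted p = 0.585). As for *Spp1*, control stroma was mostly Fibro 3 and injured stroma mostly Fibro 1. Endothelium had 3 *Cd44* UMIs in 707 control cells and ratios of 2.47 (0.698 to 13.3) and 3.04 (0.936 to 15.7), whose intervals include 1.

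After thinning to 1000 UMIs, 0 of 70 control frTECs in the 3 libraries with at least 20 such cells had a *Cd44* UMI, and 1 of 94 over all control libraries. A count of 0 in the 70 cells allows up to 4.29% of cells with a UMI at this depth and does not limit the share of cells that express the gene. This bound covers counting error only and not the spread between libraries. The shares were 7.79 ± 1.33% in UIR and 7.29 ± 2.92% in UUO (1.33%, 38.1% and 48.9% unthinned in control, UIR and UUO). With 3 against 3 libraries the exact permutation test cannot go below p = 0.1, and the adjusted p was 0.295 and 0.367. Endothelium had 0%, 0.0672% and 0.189%. In LOH the shares were 0.377 ± 0.844%, 1.52 ± 0.930% and 3.49 ± 1.38% (exact permutation test, adjusted p = 0.295 and 0.196).

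Most injured frTECs and LOH cells with a *Cd44* UMI also had *Spp1*, near the share of all cells of their class. Of 71 UIR frTECs with a *Cd44* UMI at the thinned depth, 66 (93.0%) also had *Spp1*, against 87.1% of all 881 UIR frTECs, and in UUO 24 of 26 (92.3%) did, against 86.7% of 375. In LOH 21 of 21 cells in UIR and 25 of 25 in UUO with *Cd44* had *Spp1*, where 97.1% and 97.7% of all cells had it. In macrophages 16 of 88 (18.2%, against 22.05% of all) and 20 of 99 (20.2%, against 18.7%) had both. These are counts of cells from 3 libraries a group and carry no test.

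Over the 43 class by group means, the levels of *Spp1* and *Cd44* were nearly unrelated (Pearson r = -0.11 of log2(CPM + 1)), as a description over points that share libraries. Among 8642 genes, those most like *Spp1* were *Sox9* (r = 0.88), *Serinc2* (0.88), *Aoc1* (0.86), *Elf3* (0.85) and *Misp* (0.85). *Sox9* and *Elf3* encode transcription factors of developing or injured epithelium. Those most like *Cd44* were *Lsp1* (0.89), *Pstpip1* (0.88), *Fgr* (0.88), *Rnf19b* (0.88) and *Fam105a* (0.87), of which *Lsp1*, *Pstpip1* and *Fgr* are known leukocyte genes.

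The other members of the SIBLING family of bone and tooth matrix proteins to which osteopontin belongs, *Ibsp*, *Dmp1*, *Dspp* and *Mepe*, did not pass the filter on low counts in any of the 9 classes examined (PT, LOH, DT, CD-P, frTEC, Endo, stroma, Macro and T/NK). The integrin chains that bind osteopontin, 9 genes, gave 52 gene by class tests, of which 15 (28.8%) were called higher and 7 (13.5%) lower in UIR and 19 (36.5%) and 6 (11.5%) in UUO. Over all genes of these classes 8.50% were called higher and 6.62% lower in UIR, and 9.70% and 8.14% in UUO. The median log2 fold change of the list was 0.27 and 0.44, where the class medians over all genes lay between -0.02 and 0.11.

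*Itgav*, the alpha chain common to several RGD receptors, was called higher in both models in LOH, DT, CD-P and frTEC cells and in neither model in PT. In LOH *Itgav* went from 119 ± 11.1 CPM to 265 ± 36.6 and 311 ± 47.7 (log2 fold change 0.90, edgeR adjusted p = 2.22e-05, and 1.12, edgeR adjusted p = 8.23e-07), and *Itgb1* from 117 ± 36.4 to 413 ± 23.2 and 558 ± 40.4 CPM (1.57 and 1.99). In CD-P *Itgav* rose by 1.73 and 2.04 on the log2 scale and *Itgb6*, its epithelial partner, by 1.38 and 1.92. DT (1.03 and 1.20) and frTECs (1.16 and 1.30) showed *Itgav* higher as well. Some chains were called lower in the tubule. *Itga4* in LOH had 0 to 38.4 CPM in control (35 UMIs), 3.63 to 5.27 CPM in UIR and 5.15 to 7.91 CPM in UUO, so the groups overlapped (log2 fold change -2.20, edgeR adjusted p = 0.00156, and -1.74, edgeR adjusted p = 0.00826). Both *Itga4* values turned with a 15% mitochondrial limit (0.17 and 0.67), and the UUO call was lost without Ctrl (edgeR adjusted p = 0.0734) or AN1 (edgeR adjusted p = 0.0852). *Itgb5* in CD-P was lower in UIR (-0.46, edgeR adjusted p = 0.0414), a call lost without Ctrl, N1, N2, AN1, UIR or UIR2 in turn (edgeR adjusted p = 0.0553 to 0.176). In PT *Itgb1* (0.48 and 0.50) and *Itgb5* (0.49 and 0.82) rose in both models, and *Itga4* in UIR (3.79). Genes of leukocytes and macrophages were called higher in the same PT pools, *Cd74* by 4.74 and 5.59, *Srgn* by 3.01 and 2.90 and *Stab1* by 4.23 and 4.33 on the log2 scale, and their part was not tested. In UUO the *Srgn* call was lost without the library UUO (edgeR adjusted p = 0.102) and the *Stab1* call without UUO2 (edgeR adjusted p = 0.0844). In stroma *Itgb5* rose from 78.5 ± 14.3 CPM to 592 ± 47.6 and 524 ± 6.66 (log2 fold change 3.02, edgeR adjusted p = 2.14e-08, and 2.79, edgeR adjusted p = 7.11e-08), while *Itga8*, an osteopontin and nephronectin receptor chain of pericytes, fell from 1079 ± 360 to 154 ± 106 and 217 ± 26.9 CPM (-2.72 and -2.24). Control stroma was mostly Fibro 3 and injured stroma mostly Fibro 1. Make-up and level per cell thus cannot be told apart in these or the other stromal values of the lists. In macrophages *Itga8* (27.8 ± 8.79 CPM in control, log2 fold change -1.60 and -1.65) was lower. *Itga9* was lower as well (105 ± 21.0 CPM, then 55.0 ± 6.86 and 57.1 ± 10.7, log2 fold change -0.89 and -0.91). *Itgb5* was called higher in macrophages of UUO (150 ± 23.2 CPM in control, 267 ± 13.3 in UUO, log2 fold change 0.77, edgeR adjusted p = 0.00131). *Itgav* in macrophages was 84.7 ± 16.1, 49.3 ± 5.92 and 57.5 ± 3.04 CPM, called lower in UIR (-0.76, edgeR adjusted p = 0.0132), a call lost without N1 (edgeR adjusted p = 0.0519) or UIR2 (edgeR adjusted p = 0.0552).

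Enzymes that phosphorylate, crosslink or cleave osteopontin gave 26 tests over 6 of 8 genes, of which 14 (53.8%) were called higher and 2 (7.69%) lower in UIR and 15 (57.7%) and 2 in UUO. The shares of all genes were 8.50% higher and 6.62% lower in UIR and 9.70% and 8.14% in UUO, near the share of lower calls here. The median log2 fold change was 1.08 and 1.42, or 0.83 and 1.31 with the 4 tests that had no control UMI set at their bound. Those 4 tests passed the filter on low counts through the injured libraries and remain in the counts of tests and calls. *Fam20c* in macrophages and *Mmp3* in stroma, with 1 control UMI each, passed it in the same way. The count of higher calls alone thus does not set the list apart. *Tgm2*, the transglutaminase that crosslinks osteopontin, rose in LOH from 2.34 ± 3.62 CPM to 34.1 ± 6.56 and 52.2 ± 10.1 (log2 fold change 3.46 and 4.04) and in CD-P by 2.90 and 3.88. *Fam20c*, the kinase of secreted phosphoproteins, rose in DT (1.29 and 1.51), CD-P (0.79 and 1.32) and stroma (2.68 and 2.49), but fell in frTECs (91.3 ± 39.1 CPM, then 41.1 ± 2.39 and 44.2 ± 5.15), calls lost without AN2 (edgeR adjusted p = 0.139 and 0.187) and when each cell was named on its own markers (edgeR adjusted p = 0.163 and 0.716). The *Fam20c* call in CD-P of UIR was lost without UIR2 (edgeR adjusted p = 0.0852). In macrophages *Fam20c* had 1 control UMI and reached 26.3 ± 8.40 and 34.3 ± 11.4 CPM. *Acp5*, a phosphatase that dephosphorylates osteopontin, rose in macrophages from 21.3 ± 27.0 CPM to 98.4 ± 12.01 and 115 ± 27.1 (2.07 and 2.23). Of the matrix metalloproteinases that cleave it, *Mmp7* had no control UMI in LOH and reached 39.0 ± 35.4 and 152 ± 90.9 CPM, *Mmp3* in stroma had 1 control UMI and reached 45.4 ± 19.2 and 88.9 ± 25.8 CPM, and *Mmp9* fell in T/NK cells from 76.6 ± 21.7 to 25.3 ± 4.28 and 15.1 ± 4.53 CPM (-1.57 and -2.35, the first not called without N1, edgeR adjusted p = 0.0874).

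Hyaluronan, the other ligand of CD44, was represented by 9 genes of synthesis and breakdown, of which 6 gave 39 tests. Of these, 2 (5.13%) were called higher and none lower in UIR, and 3 (7.69%) and 2 (5.13%) in UUO, near the shares of all genes (8.50% higher and 6.62% lower in UIR, 9.70% and 8.14% in UUO). *Hyal2*, a hyaluronidase, rose in LOH (log2 fold change 1.54 and 1.63) and in CD-P of UUO (1.12, lost without AN1 or the library UUO, edgeR adjusted p = 0.0722 and 0.0577) and fell in endothelium of UUO (-0.66), *Tmem2*, another hyaluronidase, fell in PT of UUO (-0.91, edgeR adjusted p = 0.0486, lost on leaving out any library but UIR, edgeR adjusted p = 0.0507 to 0.286). *Ugdh*, which makes the UDP-glucuronate for hyaluronan, rose in stroma (1.22 and 1.31), where the UIR call was lost without N1, AN1 or UIR1 (edgeR adjusted p = 0.0776 to 0.0942). Other hyaluronan-binding proteins gave 9 tests, with 4 (44.4%) and 5 (55.6%) called higher and none lower (median log2 fold change 1.74 and 1.78, or 0.88 and 1.33 with the test that had no control UMI at its bound). That test passed the filter on low counts through the injured libraries and remains in the 9. Among them *Vcan*, the proteoglycan versican, rose in stroma from 3.15 ± 4.66 CPM to 63.4 ± 19.9 and 87.7 ± 38.4, *Hapln1*, a link protein, in endothelium from 3.76 ± 2.02 to 14.4 ± 0.578 and 69.8 ± 13.5, and *Stab1*, a scavenger receptor, in macrophages from 174 ± 26.2 to 280 ± 26.1 and 384 ± 54.2, where the UIR call was lost without UIR1 (edgeR adjusted p = 0.0538).

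The 12 genes of CD44 partners, shedding and splicing gave 95 tests, with 31 (32.6%) called higher and 6 (6.32%) lower in UIR and 34 (35.8%) and 8 (8.42%) in UUO. Over all genes 8.50% and 6.62% were called in UIR and 9.70% and 8.14% in UUO, so the lower calls were near that share. The list had a median log2 fold change of 0.25 and 0.27, and 1 of its tests in each model had no control UMI. *Msn*, encoding moesin, which links CD44 to actin, rose in LOH (2.18 and 2.36), CD-P (3.66 and 3.90) and DT (1.32 and 1.74). *Mmp14*, a membrane protease that sheds CD44, rose in DT (2.78 and 3.77), CD-P (1.72 and 2.43), frTECs (2.25 and 2.61), stroma (1.63 and 1.999) and macrophages (2.04 and 2.56). *Adam10*, another sheddase, rose in stroma by 1.20 and 1.21 on the log2 scale. *Esrp1*, the epithelial splicing factor that favours variant exons of *Cd44*, was 31.2 ± 7.67 CPM in control frTECs and 7.54 ± 0.543 and 10.3 ± 4.23 CPM in UIR and UUO (-2.01, edgeR adjusted p = 0.00447, and -1.65, edgeR adjusted p = 0.0145), and the UUO call was lost without Ctrl (edgeR adjusted p = 0.0927), without AN2 (edgeR adjusted p = 0.0844) and with cells named on their own markers (edgeR adjusted p = 0.661). *Cd74*, the invariant chain and a partner of CD44 in MIF signalling, was called higher in PT, as given above, and also in frTECs (12.8 ± 9.85, 1447 ± 64.3 and 2190 ± 514 CPM) and in LOH (5.56 ± 1.96, 121 ± 25.6 and 149 ± 54.2 CPM), the LOH calls being lost with free RNA subtracted (edgeR adjusted p = 0.0659 and 0.108). Its level in macrophages was 43554 ± 3158, 32284 ± 7694 and 33193 ± 10637 CPM, and the part of macrophage RNA in these tubular values was not tested.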

How the data were processed

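The processed files hold UMI counts per gene and barcode, which the authors made with Cell Ranger (matrix headers name version 3.1.0) on mm10 and deposited unfiltered for each library. Intact cells were called here from the deposited counts (at least 500 UMIs and 200 genes, empty-droplet test with 10000 simulations at a false discovery rate of 0.01, at most 30% mitochondrial and 5% hemoglobin UMIs, and the 7.5% of barcodes with the highest doublet scores removed). Cells were clustered with scanpy 1.11.5 and igraph 0.11.9 (Leiden, resolution 1), without *Spp1*, *Cd44* and the list genes, and clusters were named from marker genes. These names may differ from those of the study. Limits for naming were revised after the clusters' marker tables had been seen, and before the values of *Spp1* and *Cd44* were.

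Counts were summed per library and class (at least 20 cells a pool, 2 pools a group), and groups were compared with edgeR 4.0.16 (TMM, quasi-likelihood test, filter on low counts, Benjamini-Hochberg adjustment over all genes tested of a class, threshold 0.05) in R 4.3.3. DESeq2 1.42.0 was an alternative. Parts of classes (Fibro 1, Fibro 3 and single LOH and frTEC clusters) were tested after their values had been seen. Between the models neither gene was called in the *Lcn2*, *Krt19* LOH cluster or in the *Bst1*-led, *Ubd*-led or *Tnc*-led frTEC clusters. Shares were compared with exact two-sided permutation tests over libraries (scipy 1.17.1), adjusted within the family of classes or compartments of a gene and contrast. Free RNA was profiled from barcodes ranked 45000 to 90000. Where a control group had 0 counts, its bound was set at 3 counts summed over that group, and intervals are exact at 95%. The tests were checked on simulated data. Depth per library is given with the results, and counting intervals cover counting error only.

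*Spp1* and *Cd44* were described in each class and contrast. From each list the text names at most 3 members with the largest absolute log2 fold change among those called in PT, LOH, DT, CD-P, frTEC, Endo, stroma, Macro or T/NK cells, and the 5 genes of highest Pearson r are named for likeness. Members and lists were chosen with earlier results of these data known. Promoter sequences are from RefSeq (GRCm38.p6), where both genes matched.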

Additional observations from a re-analysis of the deposited data

Results flagged for a closer look

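Among 20 control groups of 5 libraries tested for a library that stands apart (a gap over range above 0.71), 5 were found, where chance gives about 1 in 20. In 2 of the 5 a single UMI stood against 0 in the other libraries, which always gives a gap over range of 1, which leaves 3. *Spp1* in macrophages of Ctrl was 125 CPM against 18.0 to 34.1 CPM in the other controls, and over all its barcodes 633 CPM against 309 to 370 CPM. *Cd44* was 0.0742 CPM in PT cells and 3.46 CPM in stroma of Ctrl, each 1 UMI where the other 4 libraries had 0. N2 was apart for *Spp1* in podocytes, with 147 CPM against 14.1 to 27.3 CPM.

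The tested difference between the 2 injuries was called for *Spp1* in stroma (log2 fold change of UUO against UIR -2.56) and in macrophages (1.41), and for *Cd44* over kept cells (0.61) and over all barcodes (0.78). The calls of the macrophage difference and of that over kept cells were each lost on leaving out any of several single libraries, as given above. The direction stayed the same in those runs.

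Cells that received no class name entered no comparison between classes, though they count in the totals over kept cells and in the shares of other cells. Both genes were higher in those of the injured kidneys than in those of control. *Spp1* was 4468 CPM in the 1445 such cells of UIR and 1922 CPM in the 1041 of UUO, against 245 CPM in the 207 of control. *Cd44* was 111 and 88.2 CPM, against 3.97 CPM. These cells included a tubular cluster led by *Krt8*, *Krt18* and *Krt19* (16 control, 556 UIR and 298 UUO cells). They also included a myeloid cluster with 61 cells in UIR1, at 5356 CPM of *Spp1*.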

How the results depend on the processing

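The 38 tests counted here are those of *Spp1* and *Cd44* against control and those of *Spp1* in stroma and macrophages between the models. Tests between the models that had not been called are not among them. With DESeq2, 34 of the 38 kept their direction and side of the threshold. With RLE size factors 37 of 38 did, with every gene that had at least 1 count 35 of 38, and with at least 1000 UMIs per cell 37 of 38. With free RNA subtracted 31 of 36 did, with a 15% mitochondrial limit 19 of 25, and with 15% of barcodes removed as doublets 32 of 36. With cells named on their own markers or at resolution 2 it was 33 of 36 each, and with each library left out 395 of 416. The cause of the changes was not tested. The number of classes with *Spp1* called between UUO and UIR was 5 with every gene (2 in the report) and 1 to 3 with a library left out. The number with *Cd44* called in UIR was 3 of 5 with at least 50 cells per pool, 0 of 4 with the 15% mitochondrial limit and 3 of 6 with 15% doublets, and in UUO 1 of 4 with the 15% mitochondrial limit. *Cd44* over kept cells, UUO against UIR, was 0.45 with that limit and 0.42 to 0.73 with a library left out.

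*Cd44* in T/NK and macrophages lay near 0 and changed sign. In macrophages of UIR it was -0.0167 with DESeq2, -0.0216 with RLE, -0.00161 with own naming, -0.145 at resolution 2 and -0.0541 to 0.175 with a library left out, and in UUO -0.0636 at resolution 2. In T/NK cells of UIR it was 0.0666 with every gene, 0.0209 with free RNA subtracted, 0.00415 with at least 1000 UMIs, 0.0559 with 15% doublets and -0.0610 to 0.0376 with a library left out, and in UUO -0.284 to 0.0154. *Spp1* in T/NK cells was -8.22 and -0.90 with free RNA subtracted. *Itga4* in LOH was 0.171 (UIR) and 0.673 (UUO) with the 15% mitochondrial limit.

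Of the compartment shares of *Spp1* UMIs in UUO, 4 passed the threshold in the report and 0 with the 15% mitochondrial limit, at resolution 2 or with free RNA subtracted, and 0 to 4 with a library left out. In UIR 4 passed with own naming, and 4 for *Cd44* at resolution 2. In percentage points, macrophages of UIR were at -0.228 with the 15% mitochondrial limit, other immune cells at -4.22 and -5.75 with own naming and -0.0301 (UIR) with free RNA subtracted, and tubular cells at 6.59 and 4.83 at resolution 2. Shares of cells with *Spp1* passed in 8 classes of UIR in the report, in 0 with the 15% mitochondrial limit or 15% doublets and in 0 to 8 with a library left out. In UUO 8 passed with own naming, 9 at resolution 2 and 8 without thinning.

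The numbers 1 and 2 in the titles did not pair the UIR and UUO libraries, while the unnumbered libraries of the 2 models resembled each other more. Whether the unnumbered libraries shared a batch was not tested. Deviations from the group means correlated at r = 0.576 for the unnumbered libraries, 0.059 for number 1 and 0.106 for number 2 over 9825 genes, and 2 of 6 libraries correlated best with their own number. With the number as a replicate block, *Spp1* in T/NK cells of UUO was called (1.19), *Cd44* in T/NK cells of UIR was 0.0228, and the other 36 tests of the 38 were as reported. Depth limits *Cd44*, since control tubular classes held 0 to 10 UMIs each.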
